A study of Mus musculus with 9 samples.

Results

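The genes described here are 39 genes of the transcriptional response to hypoxia that lie outside glycolysis, among 55471 gene IDs measured by RNA sequencing in mouse embryoid bodies (EBs). They were listed by symbol from the pathway of the hypoxia-inducible factors (HIFs), after an earlier analysis of the same libraries had shown *Adm*, *Stc1*, *Ndufa4l2* and *Vldlr* by their fold changes. The list was thus chosen by pathway membership and, in part, by the fold changes of these 4 genes. They are described without a test and are left out of the counts of called genes. All 39 genes were found in the count table. For the comparison of the pathway with what it controls, 5 of them were taken as HIF components (*Hif1a*, *Epas1*, *Hif3a*, *Arnt* and *Vhl*) and the other 34 as targets.

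EBs are aggregates in which embryonic stem cells begin to differentiate. There were 3 groups of 3 libraries. WT EBs came from the parental mouse stem cell line E-14. KO EBs (Tnfaip2-/-) came from 1 clone of that line with a premature stop codon in the second exon of *Tnfaip2* made with CRISPR-Cas9, so that the genotype and the clone cannot be told apart. KO_PAPC EBs were Tnfaip2-/- EBs given 8 µM palmitic acid together with 8 µM palmitoyl-L-carnitine (PA/PC), and the untreated KO EBs received a vehicle. All EBs formed in hanging drops for 3 days and then differentiated on gelatin for 3 days in fibroblast (MEF) medium. The study's methods describe EB formation in stem cell medium, but with PA/PC in MEF medium. PA/PC was present during both formation and differentiation. The formation medium of the vehicle-treated EBs is not given separately, so PA/PC and a difference in medium cannot be told apart in contrasts with KO_PAPC. Each KO and KO_PAPC library was an independent pool of EBs by the study's methods, while the labels do not say what separates the replicates of a group. No source used here gave the oxygen level of the cultures, and no library of PA/PC-treated WT EBs was analysed here.

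Cells read oxygen through HIF. The alpha subunits HIF-1 alpha, HIF-2 alpha (*Epas1*) and HIF-3 alpha are made continuously. In the presence of oxygen the prolyl hydroxylases encoded by *Egln1* and *Egln3* mark them for the VHL ubiquitin ligase, which sends them for degradation. Without oxygen, or when the hydroxylases are inhibited, the alpha subunit pairs with ARNT and binds hypoxia response elements, whose core is ACGTG or GCGTG. Control is thus mainly at the level of the protein, and a transcript level of an alpha subunit does not measure HIF activity. Targets serve blood vessel growth, mitochondrial turnover, pH balance and collagen maturation, and several of them, including *Egln1* and *Egln3*, feed back on the pathway.

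The promoter sequences of some of these genes show the letters of such cores. RefSeq promoter windows (GRCm38.p6, 250 bases before to 50 bases after a start site) matched 28 of the 39 genes, with 35 windows. No window was at hand for *Epas1*, *Stc1*, *Ndufa4l2*, *Bnip3l*, *Plod2*, *Lox*, *Loxl2*, *Kdm4b*, *Bhlhe40*, *Ndrg1* and *Zfp395*. The 9 stretches of 80 bases below lie before a RefSeq start site, outside annotated exons, and are read along the gene. That of *Hif1a* lies inside the annotated gene, which begins at 73901375, before a later start site. Capitals mark ACGTG or GCGTG cores on either strand, so that a core on the other strand appears as CACGT or CACGC. Each stretch was chosen to hold an ACGTG core where possible and then the most cores. The density of cores shown thus does not stand for the whole window. *Egln1*, *Egln3*, *Adm*, *Stc2*, *Bnip3*, *P4ha1* and *Ddit4* are shown as targets from several role groups that were lower in KO and higher with PA/PC, *Wsb1* as a target that moved the other way, and *Hif1a* as a component.
Egln1: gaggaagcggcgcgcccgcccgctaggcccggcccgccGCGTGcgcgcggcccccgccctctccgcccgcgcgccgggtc
Egln3: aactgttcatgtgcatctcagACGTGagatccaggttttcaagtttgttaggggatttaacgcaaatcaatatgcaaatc
Adm: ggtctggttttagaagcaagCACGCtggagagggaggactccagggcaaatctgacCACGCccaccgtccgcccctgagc
Stc2: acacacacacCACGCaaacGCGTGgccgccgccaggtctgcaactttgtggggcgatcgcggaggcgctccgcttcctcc
Bnip3: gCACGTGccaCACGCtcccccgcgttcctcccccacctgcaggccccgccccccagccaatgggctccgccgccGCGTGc
P4ha1: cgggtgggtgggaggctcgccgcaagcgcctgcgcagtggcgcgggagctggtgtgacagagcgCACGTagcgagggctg
Ddit4: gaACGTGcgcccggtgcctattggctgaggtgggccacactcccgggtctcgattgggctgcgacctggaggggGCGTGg
Wsb1: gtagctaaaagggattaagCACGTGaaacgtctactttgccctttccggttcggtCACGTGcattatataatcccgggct
Hif1a: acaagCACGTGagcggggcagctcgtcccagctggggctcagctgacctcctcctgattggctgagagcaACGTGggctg

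In GRCm38 the stretches are chr8:124949339-124949418 (minus strand) for *Egln1*, chr12:54204045-54204124 (minus strand) for *Egln3*, chr7:110627547-110627626 (plus strand) for *Adm*, chr11:31370232-31370311 (minus strand) for *Stc2* and chr7:138909536-138909615 (minus strand) for *Bnip3*. The others are chr10:59323216-59323295 (plus strand) for *P4ha1*, chr10:59951880-59951959 (minus strand) for *Ddit4*, chr11:79254854-79254933 (minus strand) for *Wsb1* and chr12:73907727-73907806 (plus strand) for *Hif1a*. The *Wsb1* stretch holds 2 copies of the palindrome CACGTG, each of which reads as ACGTG on both strands and is also an E-box, the site of other helix-loop-helix factors. *Hif1a* and *Bnip3* each hold 1 such copy.

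Among the 31 windows of targets, 18 (58.1%) held ACGTG on either strand, against 19.6% of all 32851 RefSeq windows. GCGTG was found in 58.1% of target windows and in 32.4% of all windows. Promoters rich in G and C hold such cores more often, and the median GC content was 64.3% in target windows and 52.7% in all windows. Among windows with at least 60% GC, ACGTG was present in 14 of 21 target windows (66.7%) and in 26.5% of 9691 windows in all, while GCGTG was present in 71.4% and 59.2%. CACGTG was present in 9.68% of target windows and in 7.15% of all windows. Of the 4 windows of components, 1 held ACGTG and 2 held GCGTG. A match describes these letters only. Neither core was found in the windows of *Vldlr*, *Car12* and *Vhl*.

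**Figure D1:**
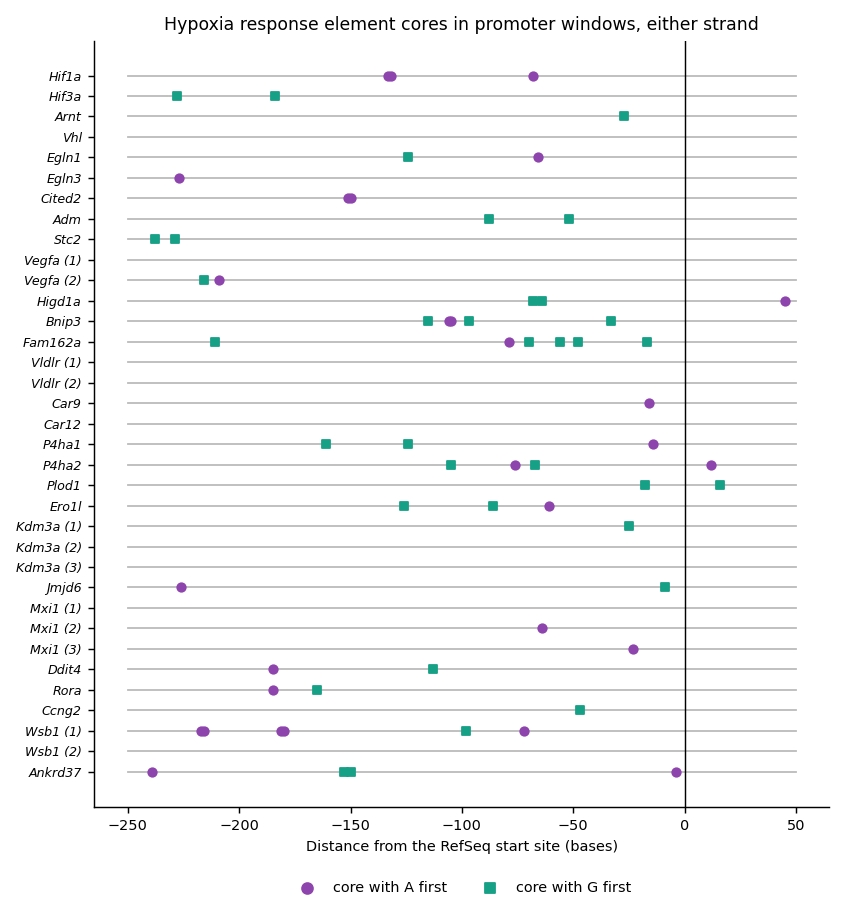
Positions of the ACGTG (circles) and GCGTG (squares) cores, on either strand, in each RefSeq promoter window of 28 of the genes, as distance from the start site in bases, with a number in brackets where a gene has several windows. At least 1 core lies in 22 of the 24 targets with a window, against 46.7% of all 27025 RefSeq genes with a window. Among windows with at least 60% GC, either core lies in 85.7% of target windows and 69.2% of all windows. No core lies in the windows of *Vldlr*, *Car12* and *Vhl*.

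Gene positions are of GRCm38 (GENCODE M21). The libraries were of even depth, with 27362913 to 28914312 counts each. *Tnfaip2* held 16, 6 and 10 counts in WT, 5, 6 and 8 in KO and 25, 14 and 16 in KO_PAPC, and since a stop codon need not lower a transcript, it gave no check of the labels. Levels are given as CPM, counts divided by the library total and scaled alike in every library. Log2 fold changes and their standard errors (SE) come from edgeR's quasi-likelihood test with TMM scaling, fitted over all genes with 3 libraries a group. Genes with an adjusted p under 0.05 were called, and a second, stricter call required a fold change tested to exceed 2. The verbs rose and fell are used for called genes. Replicates differed little (biological coefficient of variation 2.09% to 2.65%), and most of all genes tested were called in each contrast at any fold.

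In KO EBs most targets were lower than in WT, while the components went both ways. Of the 35 genes other than the 4 singled out earlier, 34 passed the filter on low counts and were tested (*Lox* did not). 29 of them fell and 4 rose, where 37.1% of all tested genes were called lower and 36.8% were called higher. Past the 2-fold test 15 were lower and 1 was higher, where the shares of all tested genes were 3.79% and 5.36%. The median log2 fold change was -1.22 over 33 targets, -1.14 over the 29 targets other than the 4, 0.02 over the 5 components and -0.01 over all 17355 tested genes. Because the genes were listed with earlier results known, no test of the difference between components and targets was made.

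With PA/PC most targets were higher than in untreated KO EBs. *Lox* passed the filter on low counts here through KO_PAPC alone and had to differ, so it is left out. Of the other 34 genes, 29 rose and 4 fell in KO_PAPC against KO, where 39.6% of all tested genes were called higher and 42.2% lower. Past the 2-fold test 17 were higher and 2 lower, where the shares of all tested genes were 6.26% and 14.4%. The median was 1.32 over 33 targets, 1.278 over the 29 targets other than the 4, 0.26 over the components and -0.02 over all 17167 tested genes. The same KO libraries enter this contrast and KO against WT, so a deviation of these libraries would move both in opposite directions, and the values of each are given side by side.

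Against WT, a comparison without the KO libraries, the targets of KO_PAPC EBs were split. Of the 35 genes, 20 rose, 10 fell and 5 were not called, where 34.2% of all tested genes were called higher and 36.4% lower. Past the 2-fold test 2 were higher and 0 lower, where the shares of all tested genes were 0.961% and 7.05%. The 2-fold test gave 0 lower genes at an unadjusted p under 0.05 and 0 with DESeq2. The median was 0.50 over 34 targets, 0.41 without the 4, -0.04 over the components and -0.02 over all 16655 tested genes. Scaling by library totals in place of TMM moved the median of all genes to -0.18 in both contrasts with KO_PAPC, and the 35 genes were then 18 higher and 13 lower than in WT. Under that scaling *P4ha1* (then called lower, edgeR adjusted p = 0.000548) and *Mxi1* changed sign against WT, and *Plod1* changed sign against KO.

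**Figure D2:**
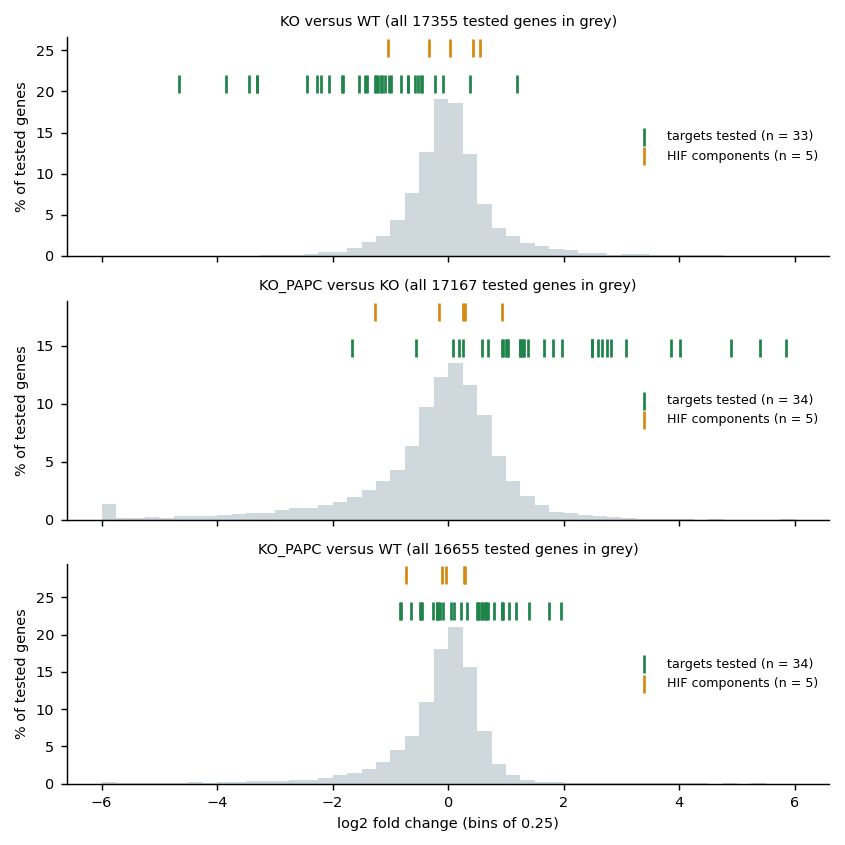
Log2 fold changes of all tested genes (grey histogram, % of tested genes in bins of 0.25, with values beyond 6 placed in the end bins), of the tested targets (green ticks) and of the 5 HIF components (orange ticks) in each contrast. The targets, the 4 genes that chose the list in part and, with PA/PC, *Lox* included, have medians of -1.22, 1.35 and 0.50 from top to bottom, and the components 0.02, 0.26 and -0.04.

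On the scale of CPM, set by library totals, the order of the group means was KO, then WT, then KO_PAPC for 20 of the 39 genes. *Adm*, *Stc1* and *Ndufa4l2*, which chose the list in part, are among these 20. The order was KO, then KO_PAPC, then WT for 13 genes, *Vldlr* among them. The share of all genes with either order was not counted, so both numbers are a description only. The remaining 6 of the 39 genes had other orders. *Epas1*, *Car12* and *Wsb1* were lowest in KO_PAPC and highest in KO, *Plod1* was lowest in KO_PAPC and highest in WT, *Hif1a* was lowest in WT and highest in KO_PAPC, and *Arnt* was lowest in WT and highest in KO. The TMM scale placed *P4ha1* (0.04) and *Mxi1* (0.10) above WT in KO_PAPC and *Plod1* (0.08) above KO, against their order in CPM. For *Hif1a* in WT and KO, *Mxi1* in KO_PAPC and both other groups, *P4ha2* in KO and KO_PAPC, and *Jmjd6*, *Car9* and *Lox* in KO_PAPC and WT, the neighbouring groups overlapped.

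**Figure D3:**
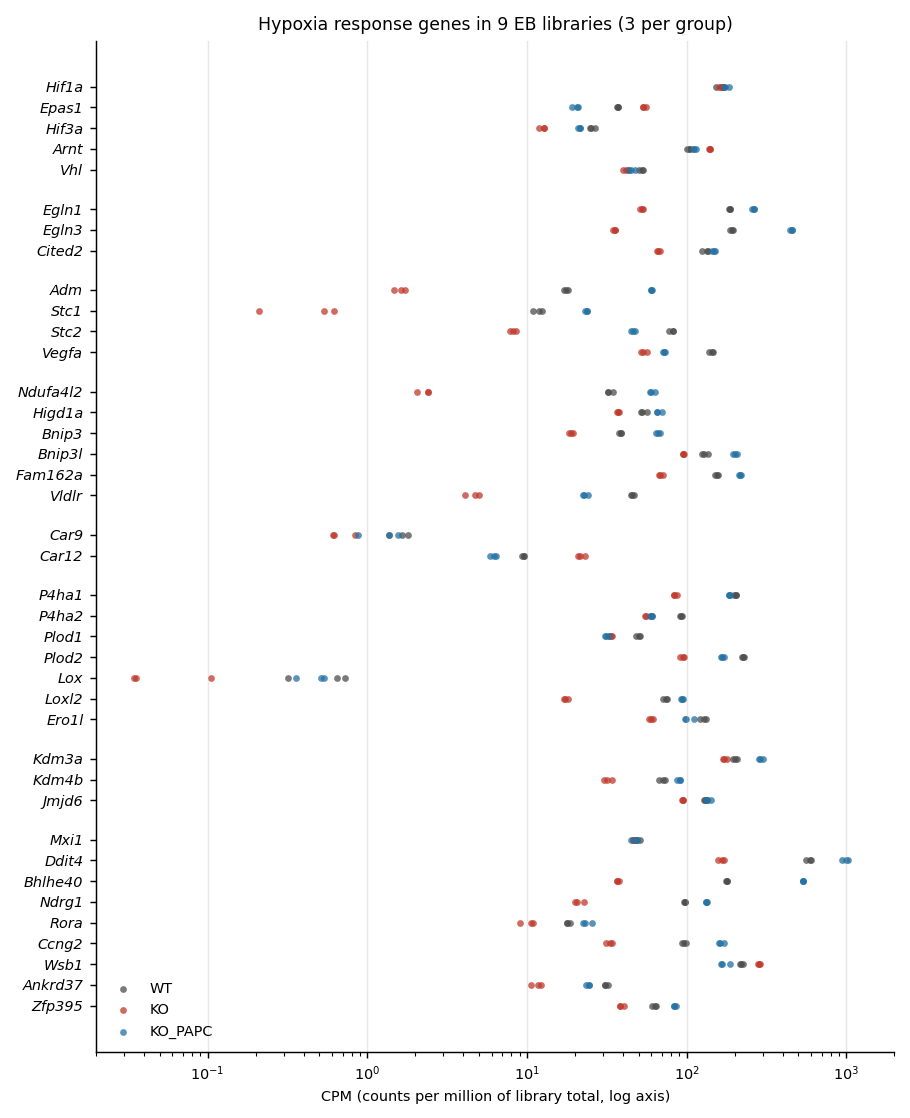
Level of each of the 39 genes in CPM on a log axis, with 1 point per library (3 of WT, KO and KO_PAPC each) and gaps between the role groups. The KO points lie to the left of both other groups for most targets, *Epas1*, *Car12* and *Wsb1* run in the opposite order, and *Lox* and *Car9* lie near or under 1 CPM.

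*Hif1a* (ENSMUSG00000021109, chromosome 12, 73901375 to 73947530), which encodes the alpha subunit that most cells use, had nearly the same transcript level in WT and KO EBs. It stood at 169, 153 and 164 CPM in WT, 160.2, 165 and 169 CPM in KO and 184, 171 and 174 CPM in KO_PAPC. The WT and KO libraries overlapped, and the KO_PAPC libraries lay above both. The log2 fold change was 0.02 ± 0.0303 (SE, adjusted p = 0.474 in edgeR) between KO and WT, and *Hif1a* rose by 0.26 ± 0.0303 with PA/PC against KO (adjusted p = 7.63e-10 in edgeR). With library totals in place of TMM that rise was 0.095 (adjusted p = 0.0048 in edgeR). Of its 51-base transcript words, 5.69% also occur in overlapping gene models.

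*Epas1* (ENSMUSG00000024140, chromosome 17, 86753700 to 86833410), the gene of HIF-2 alpha, moved against the targets. Its levels were 37.3, 36.6 and 37.4 CPM in WT, 53.1, 55.7 and 53.6 CPM in KO and 20.7, 20.4 and 19.02 CPM in KO_PAPC. No groups overlapped, and KO was highest and KO_PAPC lowest. *Epas1* rose by 0.55 ± 0.0391 on the log2 scale in KO against WT (adjusted p = 1.84e-14 in edgeR), and its log2 fold change in KO_PAPC against KO was -1.27 ± 0.047 (adjusted p = 6.32e-24). It was the 1 component past the 2-fold test, in that contrast.

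*Hif3a* (ENSMUSG00000004328, chromosome 7, 17031507 to 17062427) encodes an alpha subunit of which some isoforms restrain the other subunits. It was measured at 24.8, 25.2 and 26.8 CPM in WT, 12.8, 12.8 and 11.8 CPM in KO and 21.5, 21.3 and 20.8 CPM in KO_PAPC. KO lay below both other groups. Its log2 fold change was -1.03 ± 0.0581 in KO against WT and 0.93 ± 0.0606 in KO_PAPC against KO, both called, and -0.10 ± 0.0527 in KO_PAPC against WT (adjusted p = 0.0819 in edgeR), which was not called. *Arnt* (ENSMUSG00000015522, chromosome 3, 95434388 to 95497240), the shared partner of the alpha subunits, stood at 101, 105 and 104 CPM in WT, 139.5, 139.8 and 137 CPM in KO and 114, 109 and 111 CPM in KO_PAPC. KO was the highest group without overlap, and *Arnt* rose by 0.43 ± 0.0286 on the log2 scale in KO against WT. *Vhl* (ENSMUSG00000033933, chromosome 6, 113623959 to 113631633), the substrate receptor of the ubiquitin ligase, stood at 53.4, 52.7 and 50.4 CPM in WT, 39.8, 41.9 and 42.6 CPM in KO and 43.6, 47.4 and 44.9 CPM in KO_PAPC. Its log2 fold change was -0.33 ± 0.04 in KO against WT, 0.29 ± 0.0432 in KO_PAPC against KO and -0.04 ± 0.0428 in KO_PAPC against WT, the last of which was not called (adjusted p = 0.407 in edgeR).

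Per kilobase of exon, *Hif1a* had the highest level among the alpha subunits in each group, with means of 27.5, 27.97 and 29.9 CPM per kb in WT, KO and KO_PAPC. *Epas1* had 6.64, 9.69 and 3.59 CPM per kb, and *Hif3a* 3.81, 1.86 and 3.16. The prolyl hydroxylase *Egln3* had 71.9, 13.2 and 169.9 CPM per kb in the same groups. Its level per length was thus above that of *Hif1a* in WT and KO_PAPC and below it in KO.

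The oxygen sensors and *Cited2* showed the pattern of the targets. *Egln1* (ENSMUSG00000031987, chromosome 8, 124908587 to 124949324), the main prolyl hydroxylase of HIF, stood at 187, 186 and 184 CPM in WT, 50.9, 52.2 and 52.9 CPM in KO and 262, 264 and 258 CPM in KO_PAPC. The 3 groups did not overlap. *Egln1* had a log2 fold change of -1.83 ± 0.0301 in KO against WT, 2.50 ± 0.031 in KO_PAPC against KO and 0.66 ± 0.0282 in KO_PAPC against WT, each called, the first and second past the 2-fold test.

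*Egln3* (ENSMUSG00000035105, chromosome 12, 54178981 to 54203860), an inducible hydroxylase of the same family, changed more. It was measured at 188, 192 and 195 CPM in WT, 35.4, 35.6 and 34.5 CPM in KO and 443, 456 and 458 CPM in KO_PAPC. Again no groups overlapped. Its log2 fold changes were -2.44 ± 0.0324, 3.85 ± 0.032 and 1.41 ± 0.028 in the same 3 contrasts (edgeR adjusted p = 6.99e-35, 9e-44 and 4.34e-23), all past the 2-fold test. *Cited2*, whose protein competes with HIF for the coactivators p300 and CBP, fell by 0.99 on the log2 scale in KO against WT and rose by 1.32 in KO_PAPC against KO.

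**Figure D4:**
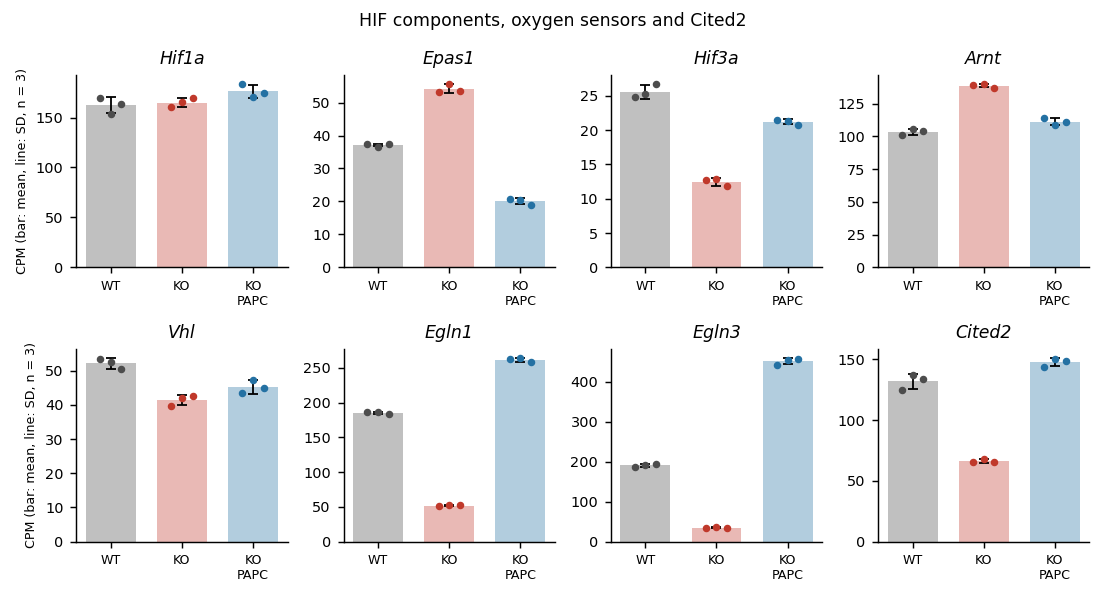
Levels of the 5 HIF components, *Egln1*, *Egln3* and *Cited2* in CPM, with bars for the mean, lines for the SD over 3 libraries and points for the libraries, each panel with its own axis from 0. *Egln1*, *Egln3* and *Cited2* are lowest in KO and highest in KO_PAPC, whereas *Hif1a* differs little between groups and *Epas1* is highest in KO.

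The secreted factors include *Adm* and *Stc1*, 2 of the 4 genes whose fold changes chose the list in part. They had the 2 largest differences between KO_PAPC and KO EBs of all 39 genes, a rank that this choice favours. *Adm* (ENSMUSG00000030790, chromosome 7, 110627661 to 110629820) encodes adrenomedullin, a peptide that widens vessels, and stood at 17.5, 18.2 and 16.99 CPM in WT, 1.47, 1.71 and 1.63 CPM in KO and 60.7, 60.1 and 60.1 CPM in KO_PAPC. The groups did not overlap, and as one of the genes that chose the list it is described only. Its log2 fold change was -3.45 ± 0.0967 in KO against WT, 5.40 ± 0.0732 in KO_PAPC against KO and 1.95 ± 0.0457 in KO_PAPC against WT. *Stc1* (ENSMUSG00000014813, chromosome 14, 69029238 to 69041804), a stanniocalcin, another of the 4, stood at 10.9, 11.8 and 12.3 CPM in WT, 0.21, 0.535 and 0.623 CPM in KO and 23.9, 23.9 and 23.1 CPM in KO_PAPC. The KO values rest on 6, 15 and 18 counts, and the log2 fold changes were -4.66 ± 0.158, 5.85 ± 0.128 and 1.18 ± 0.0611 in the same order.

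*Stc2* (ENSMUSG00000020303, chromosome 11, 31357307 to 31370074), the second stanniocalcin, was tested. It was measured at 77.7, 82.6 and 82.3 CPM in WT, 8.54, 7.78 and 8.16 CPM in KO and 45.1, 47.7 and 45.9 CPM in KO_PAPC. The groups did not overlap, and KO_PAPC lay between KO and WT. Its log2 fold change was -3.31 ± 0.0511 in KO against WT (adjusted p = 4.75e-33 in edgeR), 2.67 ± 0.057 in KO_PAPC against KO and -0.64 ± 0.0391 in KO_PAPC against WT. *Stc1* was thus above WT and *Stc2* below WT in the treated EBs.

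*Vegfa* (ENSMUSG00000023951, chromosome 17, 46016993 to 46032369), the vessel growth factor and a classical HIF target, fell in KO and rose little with PA/PC. It stood at 139, 146 and 145 CPM in WT, 56.5, 52.9 and 51.9 CPM in KO and 70.98, 72.6 and 73.5 CPM in KO_PAPC. All groups were apart, with WT well above both Tnfaip2-/- groups. *Vegfa* fell past the 2-fold test in KO against WT, with a log2 fold change of -1.41 ± 0.0339 (adjusted p = 9.18e-28 in edgeR). It rose by 0.59 ± 0.038 with PA/PC, not past the 2-fold test, and lay below WT with -0.82 ± 0.0337, the lowest value of the 35 genes in that contrast.

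Among the genes of mitochondria and lipid uptake, *Higd1a*, *Bnip3*, *Bnip3l* and *Fam162a* were tested, and 4 of 4 fell in KO against WT and rose in KO_PAPC against KO, where 37.1% of all tested genes were called lower and 39.6% higher. The other 2 chose the list in part and are described only. *Ndufa4l2* (ENSMUSG00000040280, chromosome 10, 127514967 to 127517154), a paralogue of a respiratory chain subunit that is induced by HIF, stood at 32.4, 34.4 and 32.3 CPM in WT, 2.42, 2.39 and 2.04 CPM in KO and 59, 63.6 and 59.97 CPM in KO_PAPC. It was among the 4 that chose the list, the groups did not overlap, and its log2 fold changes were -3.85 ± 0.0795, 4.90 ± 0.0716 and 1.05 ± 0.0439. *Vldlr* (ENSMUSG00000024924, chromosome 19, 27216484 to 27254231), a receptor that takes up lipoproteins, was the last of the 4 and stood at 45.5, 45.04 and 46.8 CPM in WT, 4.97, 4.75 and 4.08 CPM in KO and 22.8, 22.4 and 23.97 CPM in KO_PAPC. KO_PAPC lay between KO and WT, and the log2 fold changes were -3.31 ± 0.0643, 2.49 ± 0.0763 and -0.83 ± 0.0467.

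The mitophagy receptors *Bnip3* and *Bnip3l* had smaller changes. *Bnip3* (ENSMUSG00000078566, chromosome 7, 138890836 to 138909519) stood at 38.8, 37.6 and 39.1 CPM in WT, 18.3, 19.4 and 18.99 CPM in KO and 66.2, 64.1 and 68.3 CPM in KO_PAPC. *Bnip3l* (ENSMUSG00000022051, chromosome 14, 66985239 to 67008877) stood at 136, 125 and 128 CPM in WT, 94.9, 94.5 and 96.04 CPM in KO and 207, 196 and 200.4 CPM in KO_PAPC. In both, the 3 groups were apart, with KO lowest and KO_PAPC highest. *Bnip3* rose by 1.98 ± 0.0453 in KO_PAPC against KO and by 0.95 ± 0.0406 against WT (adjusted p = 2.15e-16 in edgeR), and *Bnip3l* by 1.25 ± 0.0299 and 0.80 ± 0.0344. Both are uncertain in part, because 46.6% of the 51-base words of *Bnip3* and 20.6% of those of *Bnip3l* occur in other gene models, pseudogenes included. *Fam162a*, a mitochondrial protein gene, fell by 1.16 on the log2 scale in KO and rose by 1.81 with PA/PC. *Higd1a*, which encodes a respiratory chain assembly protein, fell by 0.52 and rose by 1.02. Overlapping gene models cover 19.8% and 22.5% of the exons of these 2, and strand was not used in counting.

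The 2 carbonic anhydrases, enzymes that balance pH at the cell surface, moved in opposite directions. *Car9*, usually a strongly induced HIF target, was close to the lower limit, with 38 to 51 counts in WT, 17 to 24 in KO and 24 to 43 in KO_PAPC. Its log2 fold change was -1.22 ± 0.218 in KO against WT and 1.03 ± 0.247 in KO_PAPC against KO, both called, and -0.18 ± 0.205 in KO_PAPC against WT (adjusted p = 0.433 in edgeR), not called. *Car12* rose past the 2-fold test in KO against WT, with 1.20 ± 0.0633, and in KO_PAPC against KO it had -1.66 ± 0.0726 (adjusted p = 1.03e-21 in edgeR). It was the 1 target lower past the 2-fold test in that contrast, and the 1 gene of the list higher past it in KO against WT.

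Of the 7 enzymes of collagen and matrix maturation, 6 were tested in KO against WT and all 6 fell, 4 of them past the 2-fold test, beside 37.1% and 3.79% of all tested genes. Leaving out *Lox*, 5 of 6 rose with PA/PC against KO, beside 39.6% of all tested genes, and *Plod1* was not called. In KO_PAPC against WT 4 of the 7 fell (57.1%), 1 rose and 2 were not called, beside 36.4% of all tested genes called lower and 34.2% called higher. The exception that rose was *Loxl2* (ENSMUSG00000034205, chromosome 14, 69609068 to 69695834), a lysyl oxidase that crosslinks collagen, which stood at 73.9, 71.4 and 74.8 CPM in WT, 17.2, 17.1 and 17.9 CPM in KO and 95.4, 92.7 and 93.2 CPM in KO_PAPC. Its groups did not overlap, and its log2 fold changes were -2.07 ± 0.0431, 2.59 ± 0.0423 and 0.52 ± 0.0348. Of its 51-base words 44.9% occur in other gene models.

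The prolyl 4-hydroxylase subunit *P4ha1* had a log2 fold change of -1.26 ± 0.0288 in KO against WT and 1.30 ± 0.0302 in KO_PAPC against KO. Its value against WT was 0.04 ± 0.0292 (adjusted p = 0.199 in edgeR), not called. Its paralogue *P4ha2* fell by 0.70 on the log2 scale in KO and rose by 0.25 with PA/PC (0.087 with library totals, adjusted p = 0.0407 in edgeR), where its KO and KO_PAPC libraries overlapped in CPM. The lysyl hydroxylases differed likewise: *Plod2* rose by 1.005 with PA/PC, while *Plod1* had 0.08 ± 0.0461 (adjusted p = 0.108 in edgeR). *Ero1l*, an oxidase that helps fold secreted proteins, fell by 1.09 in KO and rose by 0.95 with PA/PC. *Lox* was near the floor, with 9, 18 and 20 counts in WT, 3, 1 and 1 in KO and 10, 14 and 15 in KO_PAPC. No fold is given for it.

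The nuclear oxygenases *Kdm3a* (ENSMUSG00000053470, chromosome 6, 71588972 to 71632990), *Kdm4b* and *Jmjd6*, which use oxygen to modify histones or other nuclear proteins, fell in KO and rose with PA/PC against KO and against WT. With library totals the call of *Jmjd6* against WT was lost (edgeR adjusted p = 0.0998). *Kdm3a*, a histone H3 demethylase, stood at 208, 194 and 202 CPM in WT, 168, 170.2 and 178 CPM in KO and 299.6, 286 and 288 CPM in KO_PAPC. Its groups were apart. Its fall in KO against WT was small, with -0.22 ± 0.0281, and its rise in KO_PAPC was 0.92 ± 0.0284 against KO and 0.70 ± 0.0313 against WT (adjusted p = 5.48e-16 in edgeR). *Kdm4b* changed more in KO, with -1.14 ± 0.042, and rose by 1.65 ± 0.0405 with PA/PC.

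Of the 9 regulators of transcription and growth, 8 fell in KO against WT and 8 rose in KO_PAPC against KO, beside 37.1% and 39.6% of all tested genes. Each count includes *Mxi1*, whose calls were lost under some alternatives. *Bhlhe40* (ENSMUSG00000030103, chromosome 6, 108660629 to 108666925), a repressor that also acts in the circadian clock, stood at 179, 177 and 179 CPM in WT, 36.7, 36.7 and 37.9 CPM in KO and 533, 536 and 537 CPM in KO_PAPC. The groups did not overlap, and its log2 fold changes were the largest of the 35 genes in both KO_PAPC contrasts. Its log2 fold change was -2.26 ± 0.0318 in KO against WT, 4.02 ± 0.0309 in KO_PAPC against KO (adjusted p = 1.2e-44 in edgeR) and 1.75 ± 0.0269 in KO_PAPC against WT.

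*Ddit4* (ENSMUSG00000020108, chromosome 10, 59949669 to 59951834), an inhibitor of mTORC1 signalling, had the highest level of the list per length. It was measured at 557, 592 and 597 CPM in WT, 170.5, 165 and 158 CPM in KO and 937, 1024 and 992 CPM in KO_PAPC. The groups were apart, with means of 582 CPM in WT and 165 CPM in KO. The log2 fold changes were -1.82 ± 0.0279, 2.75 ± 0.0307 and 0.92 ± 0.031.

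*Ndrg1* (ENSMUSG00000005125, chromosome 15, 66929318 to 66969640), which is linked to growth arrest and differentiation, stood at 97.3, 97.3 and 96.1 CPM in WT, 19.9, 22.7 and 20.4 CPM in KO and 131, 133 and 134 CPM in KO_PAPC. The groups were apart, with KO lowest. Its log2 fold changes were -2.21 ± 0.0418, 2.83 ± 0.0411 and 0.62 ± 0.0315. *Ccng2* (ENSMUSG00000029385, chromosome 5, 93267257 to 93276231), an unconventional cyclin that slows the cell cycle, stood at 99.2, 93.6 and 95.9 CPM in WT, 31.3, 34.01 and 33.2 CPM in KO and 162, 159 and 171 CPM in KO_PAPC. It showed the same order without overlap, with -1.55 ± 0.038, 2.49 ± 0.0378 and 0.93 ± 0.035.

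The other 5 regulators had smaller changes or went the other way. *Ankrd37* fell by 1.44 on the log2 scale in KO and rose by 1.24 with PA/PC, with 26.4% of its exon length under overlapping gene models. The nuclear receptor *Rora* fell by 0.82 and rose by 1.39, and *Zfp395* fell by 0.69 and rose by 1.28. *Mxi1*, an antagonist of MYC, barely moved, with -0.09 ± 0.0383 in KO against WT (adjusted p = 0.0272 in edgeR), a call that was lost in DESeq2 and without KO replicate 2, KO replicate 3 or WT replicate 3, with adjusted p of 0.109, 0.0835, 0.0714 and 0.121. Its call in KO_PAPC against KO was lost with library totals (edgeR adjusted p = 0.534), and that in KO_PAPC against WT (adjusted p = 0.0439 in edgeR) in 7 alternatives, where adjusted p ran from 0.0509 to 0.165. *Wsb1*, a subunit of a ubiquitin ligase, rose by 0.37 ± 0.0247 in KO and had -0.56 ± 0.032 in KO_PAPC against KO. Its stretch shown above holds 4 ACGTG matches, counted over both strands.

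**Figure D5:**
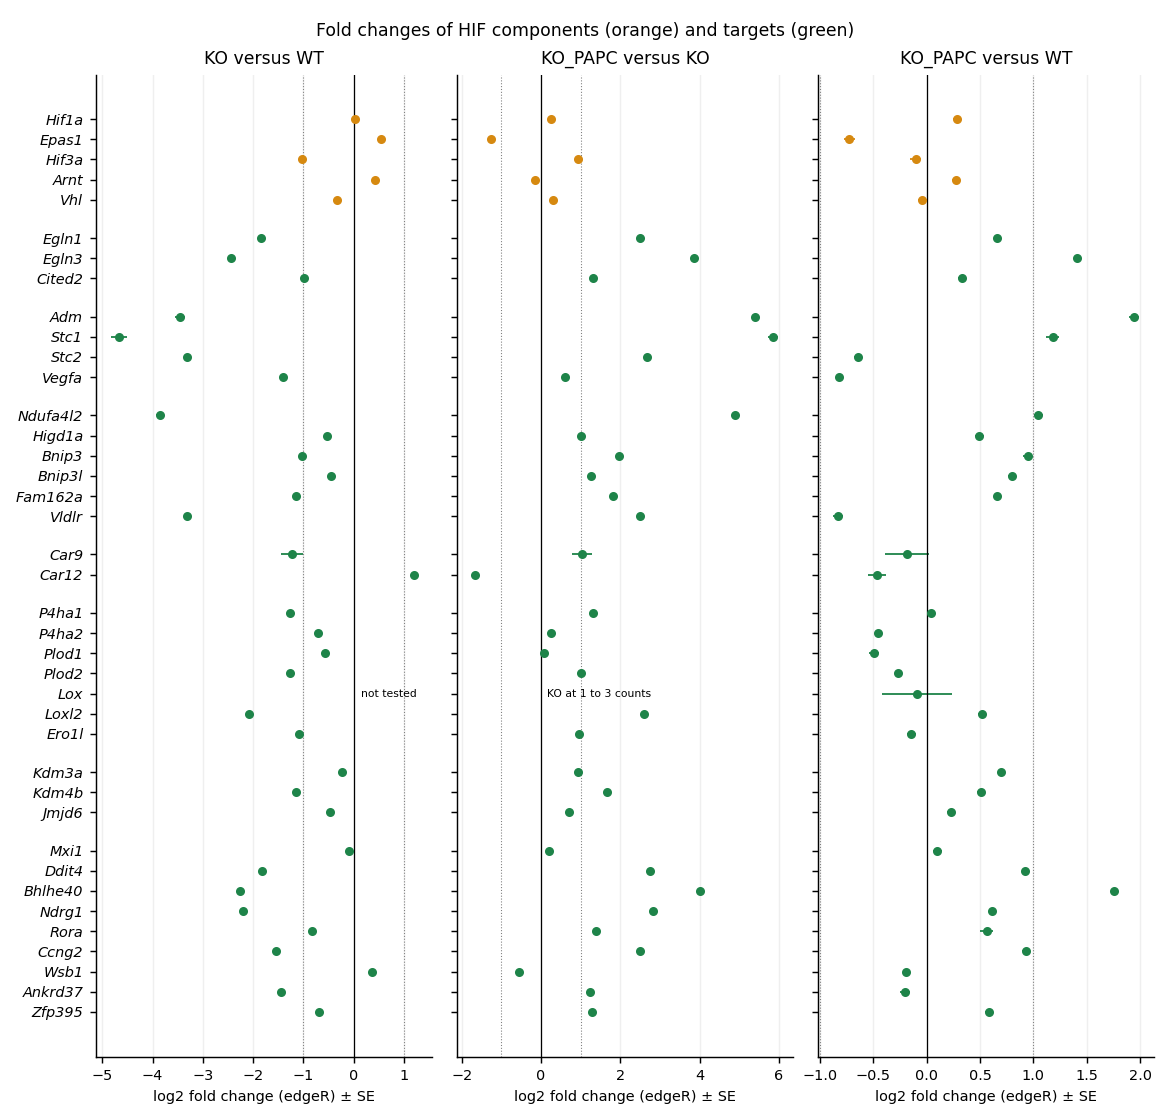
Log2 fold change (edgeR) with its SE for each gene in the 3 contrasts, HIF components in orange and targets in green, with dotted lines at a 2-fold change. The panels have different horizontal scales, *Lox* is left without a point where KO is at 1 to 3 counts, and no test is attached to *Adm*, *Stc1*, *Ndufa4l2* and *Vldlr*.

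Genes of the pathway and targets outside the list were compared by the same fit. Of 14 other HIF pathway genes (hydroxylases, ligase subunits and coactivators), 10 fell and 4 rose in KO against WT, and 7 rose and 6 fell in KO_PAPC against KO, with medians of -0.25 and 0.09. The shares in KO_PAPC against KO, 50% higher and 42.9% lower, were near those of all tested genes (39.6% and 42.2%), while in KO against WT 71.4% fell beside 37.1%. *Elob*, the elongin B subunit of the VHL ligase, had the largest change of the 14 in both contrasts, with -1.32 ± 0.043 in KO against WT and 1.94 ± 0.0353 in KO_PAPC against KO. Of 22 other hypoxia targets, 21 were tested in KO against WT, where 15 fell and 4 rose, and with PA/PC 15 rose and 5 fell, with medians of -0.45 and 0.49. The 15 that rose include *Edn1*, which passed the filter on low counts there through KO_PAPC alone and had to differ. Of those tested, 71.4% fell in KO and 68.2%, *Edn1* included, rose with PA/PC, beside 37.1% and 39.6% of all tested genes. *Hmox1*, heme oxygenase, fell by 1.03 in KO, and *Sap30*, a corepressor subunit, rose by 1.59 with PA/PC.

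The 20 glycolytic targets of HIF followed the listed targets in direction. In KO against WT 18 fell and 1 rose, in KO_PAPC against KO 17 rose and 2 fell, and in KO_PAPC against WT 17 rose and 3 fell, with medians of -0.63, 1.45 and 0.72. Of all tested genes 37.1% fell in the first contrast, and 39.6% and 34.2% rose in the other two. *Ldha*, lactate dehydrogenase A, had -1.53 ± 0.0217, 2.83 ± 0.0265 and 1.29 ± 0.0259. Of the 30 listed targets other than the 4, 18 rose and 9 fell against WT, with *Vegfa* and *Stc2* among those that fell.

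Several of the listed genes also respond to other factors, and *Ddit4*, *Stc2*, *Vegfa* and *Vldlr* are known to be induced by ATF4, the factor of the integrated stress response. In KO against WT all 10 ATF4 stress genes fell, with a median of -1.12. In KO_PAPC against KO 8 fell and 1 rose, and in KO_PAPC against WT all 10 fell, with a median of -2.26. Of all tested genes 37.1%, 42.2% and 36.4% were called lower in these contrasts. *Atf4* itself had -0.60 ± 0.0217, -2.29 ± 0.0314 and -2.88 ± 0.0327. The part of these changes in the levels of the listed genes was not tested.

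Markers of cell types moved with the groups as well, and in such bulk samples fewer cells of a type and less RNA per cell cannot be told apart. The summed level of 6 pluripotency genes was 2183 to 2200 CPM in WT, 3278 to 3299 in KO and 1963 to 1992 in KO_PAPC. Of these, 5 rose in KO against WT and *Pou5f1* was not called (adjusted p = 0.304 in edgeR). In KO_PAPC against KO *Pou5f1* rose by 0.44 and the other 5 fell. Against WT *Pou5f1* (0.47) and *Sox2* (0.07) rose and the other 4 fell. Of all tested genes 36.8% rose in KO against WT, and 42.2% and 36.4% fell in the other 2 contrasts. The 5 neuroectoderm markers summed to 130.2 to 135.5 CPM in WT, 37.8 to 41.3 in KO and 211 to 214 in KO_PAPC. The 9 primitive or visceral endoderm markers summed to 356 to 366 CPM, 178 to 186 and 21.2 to 22.2 in these groups, and the 6 parietal endoderm markers to 1830 to 1935, 946 to 962 and 293 to 298. The sums hide that 3 of the 9 (*Afp*, *Ttr* and *Apoa1*) rose in KO against WT, *Afp* past the 2-fold test with 1.21, while 6 fell. All 9 fell in both contrasts with KO_PAPC.

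Markers of vessel and blood cells, in which *Epas1* and *Vegfa* have known roles, were summed too. The 6 endothelial markers summed to 87.9 to 92.0 CPM in WT, 152 to 156 in KO and 27.4 to 29.6 in KO_PAPC. This was the order of groups of *Epas1* and not that of *Vegfa*. *Emcn* was at 3 counts or fewer in every library. *Cdh5* and *Tie1* did not pass the filter on low counts in KO_PAPC against WT. The part of each marker in the endothelial sum was not examined. The sum may rest mainly on a single gene such as *Pecam1*, so it does not measure endothelial cells. The 5 erythroid markers summed to 0.776 to 1.75 CPM over all libraries, with *Hbb-bh1*, *Hba-x* and *Hbb-y* at 3 counts or fewer. The 6 trophoblast markers summed to 3.85 to 4.35 CPM in WT, 12.0 to 13.5 in KO and 3.14 to 3.77 in KO_PAPC, with *Prl3d1*, *Prl2c2* and *Tpbpa* at 3 counts or fewer, and the 6 fibroblast markers summed to 46.3 to 47.3 CPM, 24.1 to 24.6 and 14.3 to 15.5 in WT, KO and KO_PAPC. *Pdgfra* fell in all 3 contrasts (-1.41, -2.34 and -3.75), whereas *Col1a1* rose by 0.84 and *Col1a2* by 0.34 in KO_PAPC against WT. *Pdgfrb* was not called there. *Col3a1* passed the filter on low counts there through KO_PAPC alone and had to differ, so no fold is given for it. Mitochondrial transcripts made up 1.85 to 1.87% of counts in WT, 1.96 to 1.98% in KO and 1.26 to 1.34% in KO_PAPC. The part of cell composition and of mitochondrial RNA in the values of the listed genes was not tested.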

How the data were processed

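RNA was sequenced in 9 libraries of mouse EBs, 3 each of WT, KO and KO_PAPC. The authors deposited raw counts per Ensembl gene, which are whole numbers and not normalized. The submitters' processing notes name bcl2fastq 2.20.0.422, STAR 2.7.2b and featureCounts 1.6.5 with build GRCm38, and reads of several genes or positions were not counted. For WT and KO EBs the study's methods name TopHat2 instead, but the WT columns are in the same table, so a difference in processing cannot be told apart from genotype in contrasts with WT. Libraries were not stranded. No per-sample column was left unused (0).

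Symbols were joined by Ensembl ID from GENCODE M21, and 241 of 55471 IDs had no match. Every replicate pair differed by more than sampling noise (chi-square test, genes of 20 counts or more). Genes were tested with edgeR 4.0.16 in R 4.3.3 (quasi-likelihood, TMM, filterByExpr, Benjamini-Hochberg over all tested genes), each contrast on its own 6 libraries, and with glmTreat for a fold of 2. The SE was derived from the F statistic. p-values measure the spread between the 3 libraries of a group. Motifs were searched on both strands.

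The listed genes, the comparison lists and the tests were chosen with earlier results of these data known. Values of every library were given for *Adm*, *Stc1*, *Ndufa4l2*, *Vldlr*, the components, *Egln1*, *Egln3*, *Vegfa* and, in each contrast, the 6 other genes with the largest log2 fold changes among those with a mean of at least 1 CPM in a group. Of the other lists, genes with the smallest adjusted p were named. *Car9* and *Lox* counts, and counts and medians without *Lox*, were added after their values were seen. The alternatives were DESeq2 1.42.0, RLE factors, library totals, 2 other filters, a joint fit, the replicate number as a block and each library left out in turn.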

Additional observations from a re-analysis of the deposited data

How the results depend on the processing

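Counts of called genes among the 35 kept within 1.5 times their values under every alternative, except that 0 genes in place of 1 were higher past the 2-fold test in KO against WT with DESeq2. The median of the targets, the 4 genes that chose the list in part included, in KO against WT was -1.24 with DESeq2, -1.21 with RLE factors, -1.23 in the joint fit and -1.25 without a filter, and with 1 library left out it lay between -1.25 and -1.20. In KO_PAPC against KO it was 1.19 with library totals and 1.315 with a mean of at least 10 counts, and 1.306 to 1.38 with 1 library left out. In KO_PAPC against WT it was 0.34 with library totals and 0.48 to 0.51 with 1 library left out. Without the 4, an alternative chosen after seeing the data, the median of the other targets was -1.14 in KO against WT (-1.16 without a filter, and -1.142 to -1.129 with 1 library left out), 1.29 in KO_PAPC against KO (1.122 with library totals, 1.274 with a mean of at least 10 counts, 1.313 without a filter, 1.274 to 1.309 with 1 library left out) and 0.41 in KO_PAPC against WT (0.24 with library totals, 0.387 to 0.43 with 1 library left out). These medians of targets include *Lox* wherever it passed the filter or no filter was used. Leaving *Lox* out, the main fit of KO_PAPC against KO gave 1.319 over 33 targets and 1.278 over the 29 other than the 4. The median of the components changed sign in KO against WT without WT replicate 2, to -0.018, where *Hif1a*, the middle gene, had the same value (edgeR adjusted p = 0.609). With 1 library left out it ranged from -0.018 to 0.051 there, from 0.24 to 0.28 in KO_PAPC against KO and from -0.07 to -0.01 in KO_PAPC against WT. With library totals it was 0.10 in KO_PAPC against KO and -0.21 in KO_PAPC against WT, and it was 0.29 without a filter in KO_PAPC against KO.

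With 1 library left out, KO against WT had 4 genes higher and 28 to 30 lower (1 and 15 to 16 past 2-fold). KO_PAPC against KO, *Lox* included, had 30 to 31 higher and 4 lower (18 and 2 past 2-fold), and KO_PAPC against WT had 19 to 20 higher and 10 lower (2 and 0 past 2-fold). For genes with values in every library, 692 of 702 alternatives kept direction and call, or for the 4 moved by less than the replicate spread. *Hif3a* and *Vhl* were called lower in KO_PAPC against WT with library totals (adjusted p = 7.71e-05 and 0.000137). *Plod1* was called in KO_PAPC against KO without KO_PAPC replicate 1 (adjusted p = 0.0462). Without a call, *Car9* and *Lox* changed sign in KO_PAPC against WT when 1 library was left out. With the replicate number as a block, 4 genes rose and 29 fell for KO against WT, 30 rose and 4 fell for KO_PAPC against KO with *Lox* included, and 20 rose and 10 fell for KO_PAPC against WT, so the block changed none of these counts. Deviations of libraries with the same number correlated at -0.107 to 0.177, and the numbers were not taken as pairs. At 1 to 3 counts in KO, *Lox* could not be resolved at this depth.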
